A study of Mus musculus with 6 samples.

Results

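The 10 genes described here belong to the oxygen-sensing pathway of the hypoxia-inducible factors (HIFs): the factor subunits Hif1a, Epas1 and Hif3a, the ubiquitin ligase subunit Vhl, the prolyl hydroxylases Egln1, Egln2 and Egln3, and the target genes Bnip3, Ankrd37 and Vegfa. They are 10 of the 34714 gene symbols counted by RNA-seq in the gastrocnemius (Gas) muscle, and were chosen by name, with the M92KO against WT differences of these same libraries already known. Their differences are therefore given as a description and carry no test. The question was which transcripts of the pathway differed in muscle without miR-92b.

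Gas muscles came from 3 wild-type (WT) mice and 3 mice with a global knockout of miR-92b (M92KO), 1 library for each mouse. The M92KO line is C57BL/6JGpt-Mir-92bem22Cd549/Gpt, in which the microRNA is missing from every tissue and not from muscle alone, and WT mice were age-matched C57BL/6. All 6 mice were 8 weeks old and untreated, with standard chow and water given freely per the labels, and the study's methods state that knockout mice were male and give no sex for WT mice. The supplementary methods describe an overnight fast before tissue collection in mice that had been treated. Whether these untreated mice were fasted is not stated. Library totals ran from 38246649 to 48209846 counts in WT and from 33160508 to 37019640 in M92KO, with no overlap between the groups. The Mir92b locus was not analysed here, so the labels were not checked against the deleted gene.

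In normal oxygen, prolyl hydroxylases mark the alpha subunits of the HIFs, and the VHL ubiquitin ligase then sends the marked protein to destruction. When oxygen falls the subunits persist, pair with Arnt and switch on genes for glycolysis, vessel growth and mitophagy. Egln3 is itself such a target as well as an enzyme of the pathway. Since the subunits are controlled mainly as proteins, a transcript level does not report how much HIF is active.

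The sequences of miR-92b are shown first because the knockout removes both of its arms. The arms lie on the minus strand, at chr3:89227126-89227147 for the 3p arm and chr3:89227165-89227188 for the 5p arm (RefSeq, GRCm38.p6). Capitals mark the seed, bases 2 to 8, by which a microRNA pairs with a transcript.
miR-92b-3p: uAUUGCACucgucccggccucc
miR-92b-5p: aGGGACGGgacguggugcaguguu

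A seed match was searched in the 3′-UTRs of the GENCODE M21 annotation (GRCm38) as the letters GTGCAAT or TGCAATA for the 3p arm and CCGTCCC or CGTCCCA for the 5p arm, alone or joined. The final A of TGCAATA and CGTCCCA lies opposite base 1 of the microRNA, outside the seed, and in CGTCCCA it does not pair. Among 13486 tested genes with a 3′-UTR, 14.5% held such a match for the 3p arm and 5.9% for the 5p arm. Egln3 was the member with matches to both arms, while Hif1a held one for the 3p arm and Vhl one for the 5p arm. The other 7 members, Bnip3, Ankrd37 and Vegfa among them, held no match of these kinds. A match is a stretch of letters and not a measured binding site.

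The Egln3 matches lie in the last exon of the gene on the minus strand of chromosome 12, in a 3′-UTR of 1643 bases. They are printed 5′ to 3′ with the matched letters in capitals, the first at chr12:54180610-54180616, the next at chr12:54179064-54179070 and the 5p match at chr12:54179217-54179223. The first starts 8 bases into the 3′-UTR, the next starts at base 1554 and the 5p match at base 1401.
Egln3 site for miR-92b-3p, near the stop codon: ctgtggtGTGCAATccgctggccgc
Egln3 site for miR-92b-3p, near the transcript end: tttttgacccaTGCAATAttcccagcgcc
Egln3 site for miR-92b-5p: ccacccgtgccCCGTCCCgtggctcagtt

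For comparison, the Hif1a match lies at chr12:73946240-73946246 on the plus strand, 537 bases into a 3′-UTR of 1827 bases. The Vhl match lies at chr6:113630124-113630130, also on the plus strand, 555 bases into a 3′-UTR of 2064 bases.
Hif1a site for miR-92b-3p: gcagttactcaTGCAATAtattctgcatt
Vhl site for miR-92b-5p: ctgatttcccaCGTCCCAgcactttctct

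In the counts, 4 of the 10 genes were higher in all 3 M92KO mice than in any WT mouse, as were 8.77% of all 15788 genes tested. These were Ankrd37, Egln3, Bnip3 and Vegfa, in the order of their fold change, while the factor subunits, Vhl, Egln1 and Egln2 had overlapping groups. Of these 4 genes Egln3 held seed matches and the others none, and of the 6 genes with overlapping groups Hif1a and Vhl held a match and Epas1, Hif3a, Egln1 and Egln2 none. Values are in CPM, the count of a gene relative to the TMM-scaled size of its library, and log2 fold changes are M92KO over WT. The standard error (SE) was derived from the edgeR quasi-likelihood test, as the absolute log2 fold change divided by the square root of the F statistic.

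**Figure D1:**
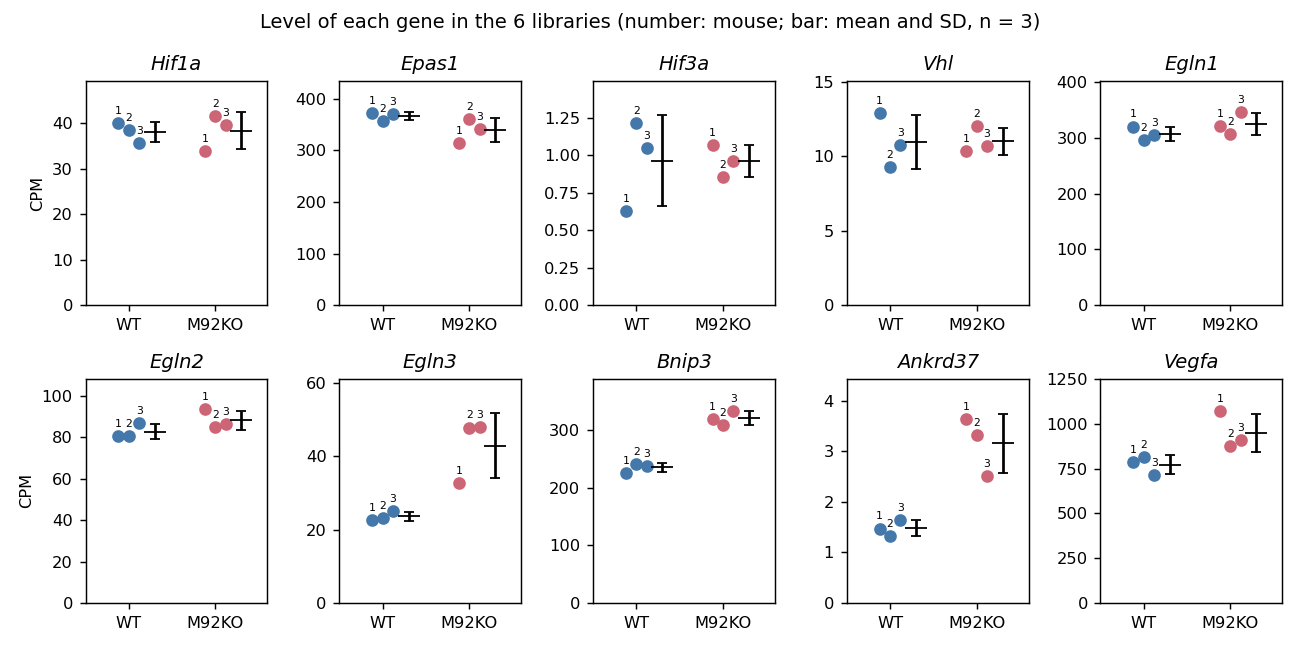
Level of each of the 10 genes in CPM (vertical axes, from 0) in the 3 WT (blue) and 3 M92KO (red) mice, 1 numbered point per library, with the mean and SD of the group in black. All red points of Egln3, Bnip3, Ankrd37 and Vegfa lie above all blue points, and M92KO mouse 1 has the lowest red Egln3 value at 32.7 CPM and the highest red Vegfa value at 1072 CPM.

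Egln3 encodes PHD3, a prolyl hydroxylase whose transcript is strongly induced by HIF in many cells. Its level was 22.6, 23.1 and 25.0 CPM in the 3 WT mice, and 32.7, 47.8 and 48.1 CPM in the 3 M92KO mice. The WT mice lay close together, and M92KO mouse 1 lay between them and the other M92KO mice. The means were 23.6 ± 1.27 CPM in WT and 42.9 ± 8.82 CPM in M92KO (SD, n = 3), a fold change of 1.82 and a log2 fold change of 0.86 with an SE of 0.14.

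Egln1 encodes PHD2, the main oxygen sensor among the prolyl hydroxylases. It measured 320, 296 and 304 CPM in WT and 320, 307 and 346 CPM in M92KO, and the groups overlapped. Its log2 fold change was 0.082 with an SE of 0.073, and 2 SEs on either side reach from -0.064 to 0.23.

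Egln2 encodes PHD1, a hydroxylase that sits largely in the nucleus. It measured 80.7, 80.4 and 86.8 CPM in WT and 93.4, 85.0 and 86.3 CPM in M92KO. The groups overlapped through WT mouse 3, and the log2 fold change was 0.095 with an SE of 0.069. Per length of exon, Egln3 made up 6.73% to 7.53% of the summed level of the 3 hydroxylases in WT and 9.12% to 13.4% in M92KO, and Egln1 made up 67.7% to 70.5% and 63.9% to 66.4%. Egln1 remained the most abundant hydroxylase transcript in all 6 libraries.

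Bnip3 encodes a protein of the outer mitochondrial membrane that recruits the autophagy machinery to mitochondria. It measured 226, 241 and 238 CPM in WT and 319, 308 and 333 CPM in M92KO. Both groups were tight and the gap between them was wider than either group's range. The means were 235 ± 8.33 and 320 ± 12.2 CPM (SD, n = 3), a fold change of 1.36 and a log2 fold change of 0.45 with an SE of 0.067. An antisense gene, Gm45507, covers 504 bases (22.25%) of the Bnip3 exons, and since the strand setting of the counting is not given in the sources used here, reads of the pair cannot be told apart there.

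Ankrd37 encodes a small ankyrin-repeat protein and is a known direct HIF target. It had few reads, 68, 51 and 78 counts in WT and 126, 109 and 91 in M92KO. In CPM these were 1.47, 1.32 and 1.63 against 3.63, 3.33 and 2.51, so that the lowest M92KO mouse was above the highest WT mouse. The means were 1.48 ± 0.157 and 3.15 ± 0.581 CPM (SD, n = 3), a fold change of 2.13 and a log2 fold change of 1.09 with an SE of 0.20. The gene shares 349 bases (22.68%) of its exons with Lrp2bp on the other strand, a gene with 279 to 490 counts. It also shares 57 bases (3.7%) with Ufsp2 on the other strand, a gene with 1202 to 1708 counts. Part of the small Ankrd37 count can therefore not be assigned with certainty.

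Vegfa encodes the main growth factor for blood vessels and was the most abundant of the 10 transcripts. It measured 788, 815 and 717 CPM in WT and 1072, 874 and 908 CPM in M92KO. M92KO mouse 1 stood highest, and the gap between the highest WT and the lowest M92KO mouse was narrow. The means were 773 ± 50.9 and 951 ± 105 CPM (SD, n = 3), a fold change of 1.23 and a log2 fold change of 0.30 with an SE of 0.098.

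Hif1a encodes the ubiquitous oxygen-labile subunit. It measured 40.0, 38.6 and 35.7 CPM in WT and 33.9, 41.7 and 39.6 CPM in M92KO, and the M92KO mice lay on both sides of the WT mice. The log2 fold change was 0.010 with an SE of 0.091, and 2 SEs on either side reach from -0.17 to 0.19. Its sign turned when single libraries were left out, over a range from -0.053 to 0.093.

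Epas1 encodes HIF-2alpha, a subunit abundant in endothelial cells and also present in muscle fibres. It measured 372, 357 and 369 CPM in WT and 314, 361 and 342 CPM in M92KO. M92KO mouse 2 lay within the WT range and the others below it. The log2 fold change was -0.11 with an SE of 0.073, the single negative value among the 10 genes. The 12 endothelial markers summed to 1234 to 1339 CPM in WT and 1118 to 1309 CPM in M92KO, none of them was at 0, and their part in the Epas1 value was not tested. In bulk muscle, fewer cells of a type and less RNA per cell cannot be told apart.

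Hif3a encodes a subunit whose shorter forms can restrain the other factors. It was barely counted, with 29, 47 and 50 counts in WT and 37, 28 and 35 in M92KO, or 0.964 ± 0.303 and 0.962 ± 0.105 CPM (SD, n = 3). At this depth 2 SEs around its log2 fold change reach from -0.58 to 0.59, so these counts do not settle whether there is a difference within that range.

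Vhl encodes the subunit that recognises hydroxylated HIF. It measured 12.9, 9.29 and 10.8 CPM in WT and 10.3, 12.0 and 10.7 CPM in M92KO. The M92KO mice lay inside the WT range, and 2 SEs around its log2 fold change reach from -0.27 to 0.27.

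**Figure D2:**
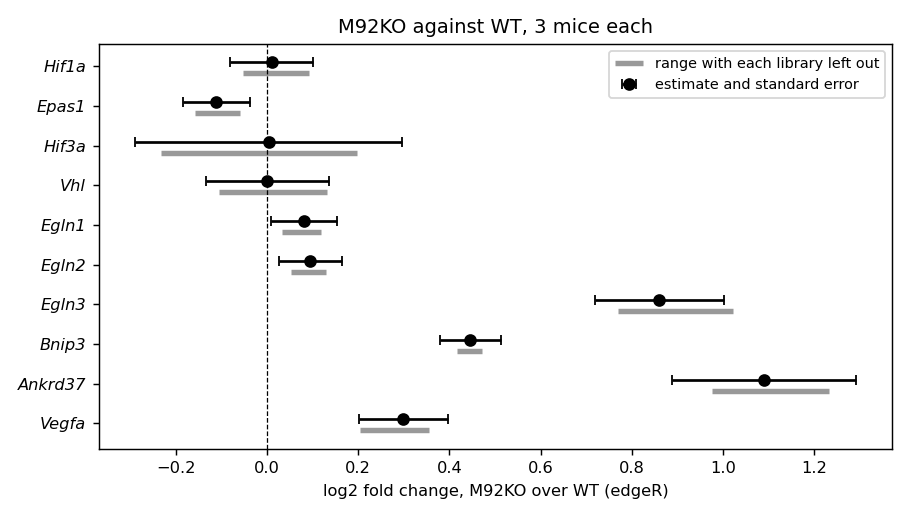
Log2 fold change of M92KO over WT for the 10 genes (horizontal axis), with the SE as a thin bar and, in grey, the range of the value when each of the 6 libraries was left out in turn. Ankrd37, Egln3, Bnip3 and Vegfa have the highest values, and their grey ranges start at 0.98, 0.77, 0.42 and 0.20.

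Over all 15788 genes tested, 12.4% had an unadjusted p under 0.05, 5.47% in the direction of M92KO, and 0% had a Benjamini-Hochberg adjusted p under 0.05 in edgeR. Groups did not overlap for 18.4% of the genes, and for 8.77% all M92KO mice were above all WT mice. Of the 10 members, 4 had an unadjusted edgeR p under 0.05 and 4 had groups that did not overlap. In edgeR with all 6 libraries, 0 members had an adjusted p under 0.05. Nothing is read from these counts, since the members were chosen with this contrast known. Genes with an unadjusted p under 0.05 split into 863 higher and 1092 lower in M92KO, and into 1244 and 1043 after quantile normalisation and limma, following the steps of the supplementary methods. DESeq2's Wald test gave 322 genes an adjusted p under 0.05. Egln3, Bnip3 and Ankrd37 were among them, which is likewise a description of genes chosen with the contrast known.

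The overall count turned on M92KO mouse 1. Without it, 399 genes had an adjusted p under 0.05 in edgeR. Egln3 and Bnip3 were among them, which again only describes genes chosen with the contrast known. The log2 fold change of Egln3, whose lowest M92KO value was that of the mouse left out, was then 1.02. Genes with an unadjusted p under 0.05 that were higher in M92KO had a median transcript length of 2757 bases, and those that were lower 4129 bases. With offsets for each library's trend with GC content and length, the log2 fold changes were 0.86 for Egln3, 0.41 for Bnip3, 1.03 for Ankrd37 and 0.31 for Vegfa.

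Compared per length, as CPM per kb of exon, the WT levels of the 10 genes spanned a 1256-fold range. Vegfa stood at 180 ± 11.9, Bnip3 at 104 ± 3.68 and Egln1 at 85.3 ± 3.37 (SD, n = 3). Epas1 followed at 65.5 ± 1.45, ahead of Egln2 at 29.5 ± 1.29, Egln3 at 8.87 ± 0.478 and Hif1a at 6.46 ± 0.372. Vhl at 3.67 ± 0.605, Ankrd37 at 0.959 ± 0.102 and Hif3a at 0.144 ± 0.0452 closed the order.

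In this order no neighbours overlapped in WT, and the M92KO mice gave the same order of the 10 genes, also with no overlap between neighbours. With the longest transcript in place of the union of exons the order was the same as well. Among the factor subunits Epas1 held 90.5% to 91.4% of the summed level per length in WT and 89.9% to 90.5% in M92KO, about as much in both groups.

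**Figure D3:**
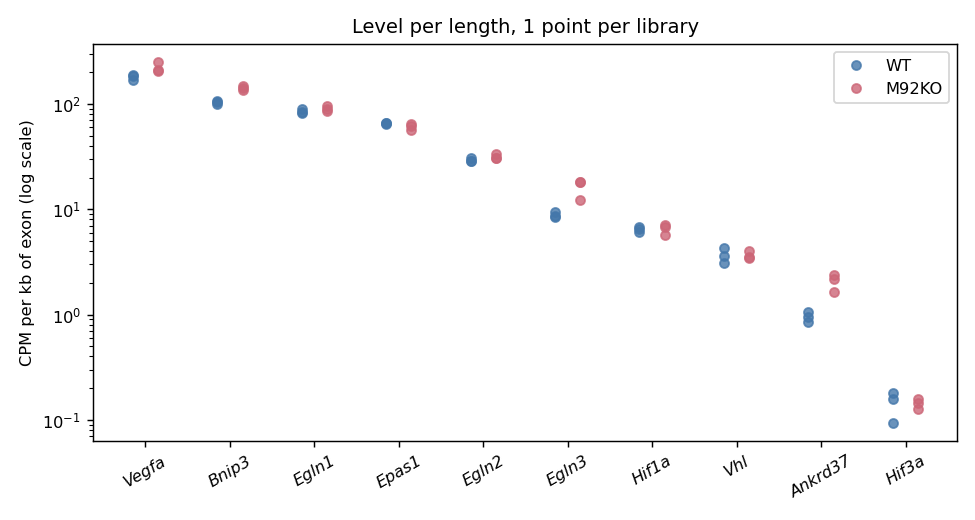
Level per length of exon in CPM per kb (vertical axis, log scale) for the 10 genes in the order of their WT means, with WT libraries in blue and M92KO libraries in red. The order runs from Vegfa at 180 CPM per kb to Hif3a at 0.144 CPM per kb in WT, and Egln3 and Ankrd37 show the widest gaps between the colours.

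Promoters are shown because HIF binds short motifs, ACGTG or GCGTG in its usual core, and the members that stood higher in M92KO can be compared for them. RefSeq promoter windows (GRCm38.p6, 250 bases before to 50 after a transcription start) were matched for 9 of the 10 genes. Both motifs were searched on both strands, so that CACGTG counts on each strand. Of 32851 promoter windows, 43.8% held at least 1 match, 19.6% with ACGTG and 32.4% with GCGTG, and 3.86% held at least 4.

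The Bnip3 window held 5 matches and the Ankrd37 window 4, while the Egln3 window held 1. The window at the upstream start of Egln2 held 6, although the Egln2 groups overlapped. The window at the upstream start of Vegfa held 0. The other Vegfa window, at chr17:46025114-46025413 and so inside the gene, held 2, and Vhl held 0. Hif1a held 3, and Hif3a and Egln1 held 2 each. By GENCODE M21 the Ankrd37 window, at chr8:45999801-46000100, also lies inside its gene, which runs from 45996902 to 46005707. So does the Hif1a window, at chr12:73907617-73907916, in a gene that starts at 73901375.

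The 250 bases before the start are printed for Bnip3 (chr7:138909507-138909756), Ankrd37 (chr8:45999851-46000100) and Egln3 (chr12:54203875-54204124), all on the minus strand, with the motifs in capitals. A match in the letters is not a measured binding site, and a window without one says nothing about distant enhancers.
Bnip3: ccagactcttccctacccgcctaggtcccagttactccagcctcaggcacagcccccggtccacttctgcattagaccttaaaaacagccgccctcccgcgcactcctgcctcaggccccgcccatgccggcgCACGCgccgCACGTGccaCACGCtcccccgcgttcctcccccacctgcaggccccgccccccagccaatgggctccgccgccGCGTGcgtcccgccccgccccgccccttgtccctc
Ankrd37: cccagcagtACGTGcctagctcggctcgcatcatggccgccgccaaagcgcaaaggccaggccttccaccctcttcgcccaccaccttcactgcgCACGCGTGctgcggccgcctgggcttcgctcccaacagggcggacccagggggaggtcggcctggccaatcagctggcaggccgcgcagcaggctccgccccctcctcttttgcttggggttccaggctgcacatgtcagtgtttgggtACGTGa
Egln3: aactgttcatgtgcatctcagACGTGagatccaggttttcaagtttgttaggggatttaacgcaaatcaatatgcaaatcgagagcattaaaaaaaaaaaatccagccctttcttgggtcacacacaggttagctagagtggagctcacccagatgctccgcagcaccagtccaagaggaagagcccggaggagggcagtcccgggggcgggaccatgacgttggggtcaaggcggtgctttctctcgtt

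Over 103 further genes in lists of HIF partners, ligase subunits, targets, vessel growth factors and mitophagy genes, 102 were tested, 11 had an unadjusted p under 0.05 and were higher in M92KO, and 9 were lower, beside the 12.4% of all genes tested with such a p and the 5.47% that were also higher. Over the 102 genes the median log2 fold change was 0.025, beside -8.07e-05 over all genes tested, and 0 had an adjusted p under 0.05 in edgeR. The count of 20 genes was 9 without WT mouse 2 and 13 without M92KO mouse 3.

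Outside glycolysis, 34 HIF targets other than Egln3 were listed, 33 were tested, 5 had an unadjusted p under 0.05 and were higher in M92KO and 4 were lower, and the median log2 fold change was 0.0086. Ak4, a mitochondrial adenylate kinase, measured 2.25, 2.62 and 2.79 CPM in WT and 3.63, 3.82 and 4.27 CPM in M92KO, a log2 fold change of 0.61 with an SE of 0.16. Nos2, the inducible nitric oxide synthase, measured 16.5, 18.7 and 14.9 CPM in WT and 10.6, 13.7 and 9.61 CPM in M92KO, a log2 fold change of -0.56 with an SE of 0.15. The groups did not overlap for either gene, and the edgeR adjusted p was 0.21 for both genes.

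Among 20 HIF targets in glycolysis, all tested, 4 had an unadjusted p under 0.05 and were higher in M92KO, 1 was lower, and the median log2 fold change was 0.054. Slc16a3, the lactate exporter MCT4, measured 447, 411 and 401 CPM in WT and 571, 611 and 575 CPM in M92KO, a log2 fold change of 0.48 with an SE of 0.073 (edgeR adjusted p = 0.165). Pfkl, a phosphofructokinase, had a log2 fold change of 0.40 with an SE of 0.091, and the glucose carrier Slc2a1 one of 0.40 with an SE of 0.097, and all 3 of these genes had groups that did not overlap.

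Hk2, the hexokinase of muscle, and Pfkfb3, which makes the activator of phosphofructokinase, had overlapping groups because M92KO mouse 1 lay with the WT mice. Hk2 measured 456 CPM in that mouse against 715 and 720 CPM in the others, with 439 to 495 CPM in WT. Pfkfb3 measured 630 CPM in that mouse against 271 and 316 CPM in the others, with 628 to 881 CPM in WT. M92KO mouse 1 also had the lowest Egln3 level of its group, but the highest Ankrd37 and Vegfa levels, at 3.63 and 1072 CPM.

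Upstream of the targets, 17 HIF partners and other regulators, the HIF hydroxylase Hif1an among them, had a median log2 fold change of -0.063. Usp20, a deubiquitinase of HIF-1alpha, was the single gene of that list with an unadjusted edgeR p under 0.05. Its log2 fold change was 0.21 with an SE of 0.083. Of 7 subunits and partners of the VHL ligase, Cand1, an exchange factor of cullin ligases, had a log2 fold change of -0.29 with an SE of 0.099, and the other 6 had values between 0.020 and 0.15.

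The vessel growth list, without Vegfa, had a median log2 fold change of -0.12 over 12 genes, and 3 of them had an unadjusted p under 0.05, all lower in M92KO. Flt1, a VEGF receptor that is also a HIF target, measured 226, 227 and 246 CPM in WT and 189, 220 and 197 CPM in M92KO, a log2 fold change of -0.21 with an SE of 0.079. The coreceptor Nrp2 had a log2 fold change of -0.34 with an SE of 0.099, and the ligand Vegfc one of -0.33 with an SE of 0.13. Groups of all 3 genes did not overlap, whereas Kdr, the main signalling receptor for Vegfa and the endothelial marker with the highest level, had a log2 fold change of -0.0031 with an SE of 0.11 and overlapping groups.

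Beside these receptors, the endothelial markers had a median log2 fold change of -0.13 over 12 genes, and 2 of them, Tie1 at -0.23 and Robo4 at -0.23, had an unadjusted p under 0.05. The part of endothelial content in the receptor values was not tested.

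Among 16 partners of Bnip3 in mitophagy the median log2 fold change was 0.051. Optn, an autophagy receptor, measured 116, 106 and 106 CPM in WT and 143, 142 and 147 CPM in M92KO, a log2 fold change of 0.39 with an SE of 0.066. Bcl2l1, which encodes the Bnip3-binding survival protein Bcl-xL, measured 29.4, 32.5 and 45.3 CPM in WT and 17.1, 13.2 and 26.4 CPM in M92KO, a log2 fold change of -0.92 with an SE of 0.25. Bnip3l, the paralogue of Bnip3 and named here after its value was seen, had a log2 fold change of 0.042 with an SE of 0.065 and overlapping groups.

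**Figure D4:**
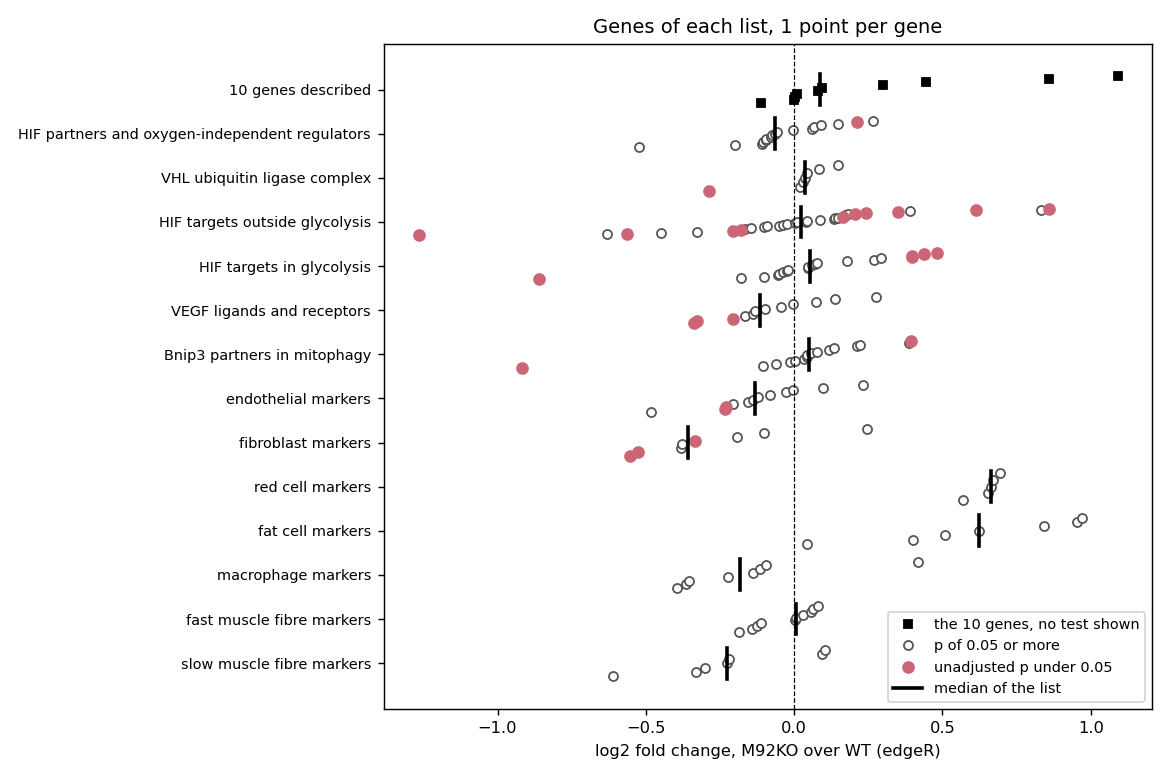
Log2 fold change of M92KO over WT (horizontal axis) for each gene of the 10 described and of 13 lists, 1 point per gene, filled red where the unadjusted edgeR p was under 0.05, with the list median as a black line. The 10 genes are drawn in their own row as squares with no test, and HIF target lists hold points on both sides of 0. Egln3 is drawn again, filled red, in the row of HIF targets outside glycolysis, whose median line at 0.024 includes it. The medians of the fibroblast, red cell and fat cell lists stand farthest from 0 at -0.36, 0.66 and 0.62. The list labelled HIF partners and oxygen-independent regulators also holds Hif1an, a hydroxylase of HIF.

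By the root mean square difference of centred log2 CPM over the 6 libraries, among 166 genes of the lists, the profile most like Bnip3 was that of Pfkl, at 0.063. Egln3 and Ankrd37 were both nearest to Ak4, at 0.19 and 0.33. Hif1a was nearest to Hif1an, the asparagine hydroxylase of HIF, at 0.048, Epas1 to Hk1 at 0.039, Egln1 to Phb2 at 0.044 and Egln2 to Tpi1 at 0.031. Hif3a was nearest to Bhlhe40 at 0.13 and Vhl to Ep300 at 0.12.

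The muscle label was checked on marker genes. The 10 fast fibre markers summed to 141061 to 157735 CPM in WT and 140866 to 151575 CPM in M92KO, with Acta1 the highest of them, and the 7 slow fibre markers to 178 to 262 and 127 to 225 CPM, with Myl3 the highest. None of these markers was at 0. The 8 fibroblast markers summed to 1773 to 2338 CPM in WT and 1204 to 1665 CPM in M92KO with no overlap, Col3a1 was the highest of them, and Col1a1, Col1a2 and Dcn had an unadjusted p under 0.05, with log2 fold changes of -0.55, -0.53 and -0.33.

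The markers of blood, fat and macrophages varied between mice, and no gene of these 3 lists or of the fibre lists reached an unadjusted p under 0.05. The 5 red cell markers, led by the globin gene Hbb-bs, summed to 74.0 to 223 CPM in WT and 143 to 336 CPM in M92KO, and their smallest p values belonged to Hbb-bt, Hba-a1 and Hbb-bs at log2 fold changes of 0.70, 0.67 and 0.66. The 8 fat cell markers summed to 315 to 364 and 313 to 395 CPM, nearly all of it Fabp4, a gene also expressed by capillary endothelium, and Lep, with 0 to 6 counts, was at 0 in WT mouse 2. The smallest p values of the list belonged to Cidec, Cfd and Retn, at log2 fold changes of 0.95, 0.84 and 0.97 with SEs of 0.47, 0.43 and 0.72. The 8 macrophage markers, led by Mrc1, summed to 73.8 to 83.8 and 54.2 to 80.2 CPM. Their smallest p values belonged to Mrc1, Cd163 and C1qb, at log2 fold changes of -0.39, -0.35 and -0.22. Of the 8 markers, 7 had negative values and 1 a positive value, Cd68 at 0.42 with an SE of 0.33. In the fibre lists the smallest p values belonged to Atp2a1, Actn3 and Ckm (-0.13, -0.14 and -0.11 on the log2 scale) and to Atp2a2, Tnnt1 and Myl3 (-0.23, -0.33 and -0.61). Of the 10 fast fibre markers, 6 had positive and 4 negative log2 fold changes, with a median of 0.0056. Of the 7 slow fibre markers, 2 had positive and 5 negative values, with a median of -0.23. The part of other cell types in the values of the 10 genes was not tested.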

How the data were processed

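Gas RNA was extracted with a Qiagen RNeasy kit and made into SMARTER mRNA-Seq libraries, per the labels. The authors deposited raw counts, whole numbers of reads for each of 34714 gene symbols in 6 libraries, and the submitters' processing notes name GRCm38 and mm10. The aligner, counter, annotation and strand setting are not given in the sources used here. The 10 genes and all gene lists were chosen with earlier results of these data known.

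Genes were filtered with filterByExpr (minimum count 10, minimum total 15), scaled by TMM and tested with edgeR 4.0.16 quasi-likelihood fits (R 4.3.3), with Benjamini-Hochberg adjustment over 15788 genes. A count floor of 3 corresponds to 0.0629 to 0.0916 CPM. With 3 mice per group, the edgeR p-values set the group difference against the spread between these mice, with the spread of each gene moderated by that of the other genes. Whether mice came from separate litters is not stated. The supplementary methods describe overnight fasting before muscles were collected after treatment, and the sequenced mice are labelled as untreated.

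Alternatives were DESeq2 1.42.0 (size factors, Wald test), other count filters, a replicate block, quantile normalisation of the counts followed by log2(value + 1) and limma 3.58.1, each library left out and, chosen after seeing the data, GC and length offsets (lowess span 0.3) and the longest transcript as gene length. Genes were named by a fixed rule: the 10 genes, list genes with an unadjusted p under 0.05 (the 3 with the smallest p where none or more than 6 had), the highest markers and the nearest profiles, for which 0.1 CPM was added before the logarithm. Positions, 3′-UTRs and lengths come from GENCODE M21, and microRNA and promoter sequences from RefSeq tables on GRCm38.p6. The nearest profile of Vegfa is not reported here.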

Additional observations from a re-analysis of the deposited data

How the results depend on the processing

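Over the 13 alternatives the log2 fold changes ranged from 0.77 to 1.02 for Egln3, 0.41 to 0.47 for Bnip3, 0.98 to 1.23 for Ankrd37 and 0.20 to 0.36 for Vegfa. They ranged from 0.032 to 0.12 for Egln1, 0.052 to 0.13 for Egln2 and -0.16 to -0.059 for Epas1. Vegfa, with an unadjusted p under 0.05 in the reported fit, did not reach it without WT mouse 3. It also missed it with quantile normalisation and limma, at a log2 fold change of 0.25. Epas1 had an unadjusted p under 0.05 with quantile normalisation and limma, at -0.14, and not in the reported fit. Hif3a turned to -0.0018 and Vhl to -0.0046 with no filter on low counts, and Vhl to -0.00078 with at least 10 counts in every library and to -0.0020 with the GC and length offsets. With single libraries left out, Hif1a ranged from -0.053 to 0.093, Hif3a from -0.23 to 0.20 and Vhl from -0.11 to 0.13.

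Genes with an adjusted p under 0.05 numbered 0 in the reported fit, 322 with DESeq2's Wald test, 6 with no filter, 42 with quantile normalisation and limma, 2 with the replicate block and 0 to 399 with single libraries left out. Genes with an unadjusted p under 0.05 numbered 1222 to 2984 with single libraries left out, and the other pathway genes 9 to 30. The cause of these shifts was not tested. Mice with the same replicate number share only a number: their deviations correlated at 0.081, 0.038 and 0.015, and WT mouse 3 correlated best with M92KO mouse 2. The replicate block left 1691 genes at an unadjusted p under 0.05. Depth limits Hif3a and Ankrd37 most.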
